A study of Mus musculus with 6 samples.

Results

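The BCL2 family controls whether pores open in the outer membrane of a cell's mitochondria. Its RNAs were measured in Ret reporter cells of embryonic mouse sensory ganglia close to birth. The set comprised 10 of the 41388 genes in the count files, found by matching each Ensembl identifier to its symbol. They were 4 pro-survival genes (Bcl2, Bcl2l1, Bcl2l2 and Mcl1), 2 effector genes (Bax and Bak1) and 4 BH3-only genes (Bcl2l11, Bbc3, Bid and Hrk), and all 10 passed the filter on low counts.

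The cells came from dorsal root ganglia of C57BL/6 embryos at 18.5 dpc (days post coitum), spinal levels T11-S1, from which the EGFP-positive fraction was sorted. Every embryo of both sexes carried the reporter, which the sample records call Tg(Ret-EGFP)SJ, while the series describes heterozygotes with EGFP placed in the Ret locus. Whether 1 Ret copy was disrupted is therefore not settled. There were 3 male libraries (A, C and D) and 3 female libraries (A, B and C). Pools of 3 embryos (60 ganglia) gave male A and female A, and pools of 2 embryos (40 ganglia) gave male C and male D. Single embryos (20 ganglia each) gave female B and female C. Those last libraries have a different form of record and make up record set 2, with the remaining 4 in record set 1. All values are levels within the sorted population, and fewer cells of a type and less RNA per cell cannot be told apart in such bulk libraries.

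Pro-survival BCL2 proteins bind and hold the effectors BAX and BAK, which otherwise form pores in the outer mitochondrial membrane and release cytochrome c. BH3-only proteins are induced or activated by loss of trophic support and other stress, and they occupy the pro-survival proteins or engage the effectors directly. Sensory neurons depend on target-derived factors, among them neurotrophins and GDNF family ligands, and surplus neurons die through BAX during embryonic life and shortly after.

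All 10 proteins share the BH3 segment, the helix through which the family binds one another, and its coding bases are shown because they are the feature the whole set has in common. The stretch was located in the longest complete coding sequence of each gene in GENCODE M21 (GRCm38). The pattern was a leucine or methionine codon, 3 codons of any kind, a glycine or alanine codon, an aspartate codon and then an aspartate, glutamate or glycine codon. It was written to fit known members of the family and found exactly 1 match in each of the 10 genes, against a match in 6.52% of 21523 genes searched. Each line gives the 7 matched codons with 1 codon on either side, 27 bases within a single coding exon, read 5′ to 3′, and capitals mark the glycine or alanine codon with the aspartate codon after it.
Bcl2 (chr1:106712578-106712604, minus strand): accctccgccgggctGGGGATgacttc
Bcl2l1 (chr2:152829700-152829726, minus strand): gcgctgagagaggcaGGCGATgagttt
Bcl2l2 (chr14:54884514-54884540, plus strand): gccatgcgggctgctGGAGACgagttt
Mcl1 (chr3:95659433-95659459, plus strand): accctgcggcgcgtgGGCGACggcgtg
Bax (chr7:45466000-45466026, minus strand): tgtctccggcgaattGGAGATgaactg
Bak1 (chr17:27022534-27022560, minus strand): cagcttgctctcatcGGAGATgatatt
Bcl2l11 (chr2:128147147-128147173, plus strand): gagctgcggcggatcGGAGACgagttc
Bbc3 (chr7:16313770-16313796, plus strand): cagctgcggcggatgGCGGACgacctc
Bid (chr6:120897292-120897318, minus strand): catctcgcccaaataGGCGATgagatg
Hrk (chr5:118169888-118169914, plus strand): cggctgcaggcgctgGGCGACgagctg
In 9 genes the capitals open with a glycine codon, and in Bbc3 with an alanine codon. Bcl2l2 is the member whose second printed codon is atg (methionine) and not a leucine codon.

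Ret, the gene that carries or drives the reporter, was at 148 to 210 CPM (counts scaled to a common library total) in the 6 libraries. The libraries held 17861500 to 29330101 counts. A count of 0, taken as up to 3 counts, would allow a level of at most 0.102 to 0.168 CPM, and no member was that low in any library. Levels given as CPM or RPKM (CPM per kilobase of summed exon length) carry TMM factors of 0.922 to 1.08. Sensory neuron markers summed to 16705 to 23789 CPM. Male A stood apart: 8 of 10 satellite glia and Schwann cell markers, 6 of 7 fibroblast and meningeal markers, 7 of 8 endothelial and pericyte markers, 6 of 8 macrophage markers and 8 of 8 cell cycle markers were highest there. Their sums were 3710, 2873, 104, 13.7 and 354 CPM in male A. In the other 5 libraries they were 1651 to 2095, 574 to 675, 43.4 to 82.8, 7.80 to 11.6 and 114 to 152 CPM. Erythroid markers summed to 16.4 to 62.7 CPM and immediate early and dissociation genes to 255 to 864 CPM, highest in female B. Of the defining markers, 1 macrophage and 1 erythroid gene never exceeded 3 counts in a library. The library labelled male C held Xist at 58.9 CPM, against 0.418 and 0.575 CPM in male A and male D and 111 to 197 CPM in females. Y-linked Eif2s3y had 20.0 CPM there, 44.9 and 63.7 CPM in the other males, and 0.137 to 0.300 CPM in the females. Kdm5d, also Y-linked, had 9.71 CPM in male C, 11.2 and 15.9 CPM in male A and male D, and 0 to 0.0553 CPM in the females. Some sex differences of members are also given without male A, male C or both, beside the result or with the other alternatives.

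**Figure D1:**
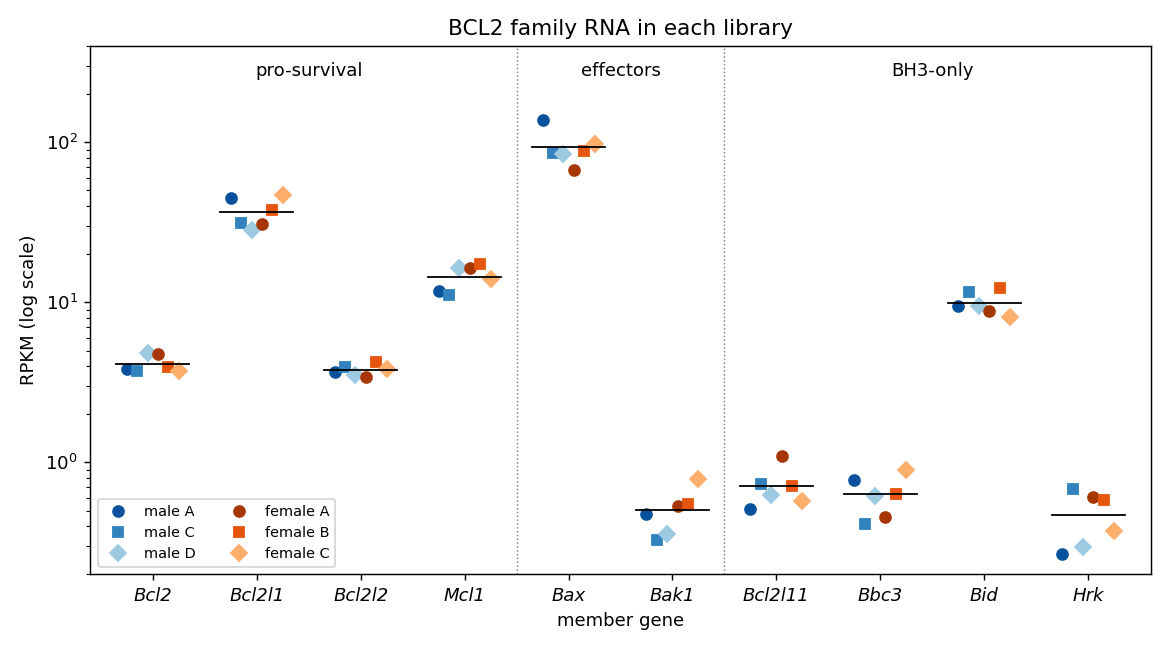
RPKM (log axis) of the 10 genes in each of the 6 libraries, with points coloured by library and horizontal bars for the mean. Bax was highest in all 6 libraries, and 4 genes (Bcl2l11, Bbc3, Bak1 and Hrk) stayed at or below 1.09 RPKM.

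Among the pro-survival genes, Bcl2l1 RNA was the most abundant per kilobase of summed exon and Mcl1 came second in every library. When counts over all exons were divided by coding length, the mean of Bcl2 (53.5 CPM per kilobase) was close to that of Mcl1 (50.9), both below Bcl2l1. Counts outside the coding bases are included on this scale. Summed exon was 9157 bases for Bcl2 and 3485 for Mcl1, against 708 and 993 coding bases, so the scale raises Bcl2 more than Mcl1. Bcl2l1 encodes BCL-XL, known for keeping postmitotic neurons alive, and lies at chr2:152780668-152831728 on the minus strand. It stood at 44.9, 31.4 and 28.3 RPKM in male A, C and D and at 31.0, 38.0 and 47.1 RPKM in female A, B and C (mean 36.8 ± 7.86, SD, n = 6). The high values were those of male A and female C, so the range of each sex covered most of that of the other. Mcl1, which encodes a short-lived survival protein needed in many progenitors and neurons (chr3:95658721-95663176, plus strand), stood at 11.8, 11.2 and 16.3 RPKM in male A, C and D and at 16.3, 17.5 and 13.9 RPKM in the females in the same order of letters. Its mean was 14.5 ± 2.62 RPKM. Male A and male C were the lowest libraries, with female C next above them. Bcl2 itself, the founding member (chr1:106538178-106714274, minus strand), was lower on the summed exon scale, at 3.81, 3.74 and 4.85 RPKM in males A, C and D and 4.75, 3.94 and 3.72 RPKM in females A, B and C (mean 4.14 ± 0.521). Male D and female A formed its upper pair. Bcl2l2, which encodes BCL-W (chr14:54883377-54888234, plus strand), was the steadiest member, with 3.44 to 4.24 RPKM over the 6 libraries (mean 3.77 ± 0.303). The mean ratio of Bcl2l1 to Bcl2 per length was 9.14 ± 2.75, from 5.83 in male D to 12.7 in female C.

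The counts of 4 genes touch another annotated gene. Exons of Bcl2l2 share 594 bases, 13.3% of its length, with Gm20521 on the same strand, and Gm20521 had 0 counts in all 6 libraries. Bid shares 628 bases (17.7%) with Bcl2l13 on the opposite strand, Bak1 shares 357 bases (14.8%) with Ggnbp1 and Bcl2 shares 558 bases (6.09%) with D630008O14Rik, both also opposite. Bcl2l13 had 557 to 1416 counts per library, beside 572 to 1308 for Bid. Ggnbp1 had 6 to 17 counts, beside 18 to 38 for Bak1, and D630008O14Rik had 0 to 11, beside 653 to 1081 for Bcl2. How counting treated strand and shared bases is not stated in those notes or labels, so reads from these stretches may be missing or assigned to the other gene.

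The 2 effectors lay at opposite ends of the set. Bax (chr7:45461695-45466898, minus strand) was at 138, 85.2 and 83.9 RPKM in male A, C and D and at 67.2, 87.8 and 97.3 RPKM in female A, B and C (mean 93.3 ± 24.1, n = 6), above 95.4% of the 14958 genes that passed the filter. Male A was the high library and female A the low one, and the part that the non-neuronal markers of male A have in this was not tested. Bak1 (chr17:27019810-27029009, minus strand) rested on 18 to 38 counts per library. Its level was 0.477, 0.329 and 0.358 RPKM in male A, C and D and 0.531, 0.552 and 0.790 RPKM in female A, B and C. The mean of 0.506 ± 0.166 RPKM exceeded that of only 12.6% of the tested genes. Every female value was above every male value, and the 95% Poisson intervals of neighbouring libraries overlapped (0.720 to 1.74 CPM in male A, 0.849 to 1.85 CPM in female A). Per length, Bax exceeded Bak1 by between 123-fold and 289-fold in single libraries. Bax was counted over 869 bases of summed exon, the shortest of the 10. With the longest transcript of GENCODE M21 (1100 bases) as the divisor its mean was 73.7.

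Of the 4 BH3-only members, Bid was the only one above 1.10 RPKM. Bid links death receptors to mitochondria once its protein is cleaved, so its RNA does not by itself reflect an active form (chr6:120891930-120916853, minus strand). It was at 9.43, 11.7 and 9.45 RPKM in male A, C and D and 8.86, 12.3 and 8.06 RPKM in female A, B and C (mean 9.96 ± 1.66). Male C and female B were the upper pair. Bcl2l11, which encodes BIM, a mediator of death after trophic factor loss in neurons (chr2:128126038-128162547, plus strand), was at 0.514, 0.737 and 0.627 RPKM in males A, C and D and 1.09, 0.717 and 0.573 RPKM in females A, B and C. Only female A stood above the rest. Bbc3 encodes PUMA, a target of p53 (chr7:16309616-16318205, plus strand), and had 0.410 to 0.897 RPKM from 20 to 36 counts per library. Hrk encodes harakiri, a BH3-only protein of neurons that JNK signalling induces on trophic factor loss (chr5:118164648-118189478, plus strand). It stood at 0.267, 0.686 and 0.295 RPKM in male A, C and D and at 0.611, 0.585 and 0.370 RPKM in female A, B and C. Male A and male D were the low libraries and male C the high one, with 29, 35 and 123 counts. Their 95% Poisson intervals, 1.01 to 2.18, 1.17 to 2.33 and 3.23 to 4.64 CPM, did not overlap between male C and the other 2 males. These intervals cover counting error only and treat each read as independent. The amplified reads carry no molecular identifiers, so the true counting error may be larger.

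The order of mean RPKM was Bax, Bcl2l1, Mcl1, Bid, Bcl2, Bcl2l2, Bcl2l11, Bbc3, Bak1 and Hrk. For 4 of the 9 neighbouring pairs the ranges did not overlap and the order held in 6 of 6 libraries. These were Bax above Bcl2l1 (2.54-fold in the means), Bcl2l1 above Mcl1 (2.54-fold), Bid above Bcl2 (2.41-fold) and Bcl2l2 above Bcl2l11 (5.32-fold). Mcl1 and Bid overlapped, with Mcl1 higher in 5 of 6 libraries, and divided by the longest transcript Bid (16.2) came out above Mcl1 (14.8). With counts over all exons divided by coding length, the mean of Bcl2l1 (241 CPM per kilobase) exceeded that of Bax (157). Divided by the longest transcript the mean of Bax (73.7) was above that of Bcl2l1 (65.7), but not in female A or female C. The place of Bax at the top in every library therefore holds for summed exon only. Summed exon is the length over which the counts were made, 869 bases for Bax and 4586 for Bcl2l1. The other divisors do not match it, at 1100 and 2568 bases for the longest transcript and 517 and 699 for coding length. Bcl2 and Bcl2l2 could not be ordered (3 of 6 libraries). The lowest 4 genes overlapped throughout, with 4 of 6 libraries in order for Bcl2l11 and Bbc3, 5 of 6 for Bbc3 and Bak1 and 3 of 6 for Bak1 and Hrk.

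**Figure D2:**
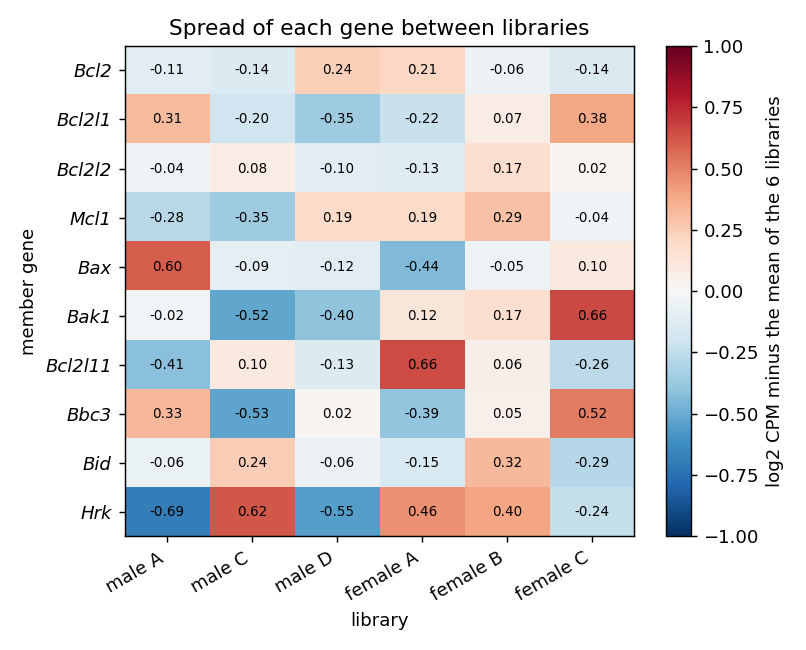
Log2 CPM of each gene in each library after subtraction of the gene's mean over the 6 libraries. The rows of Bcl2 and Bcl2l2 are nearly flat, whereas Hrk runs from -0.69 in male A to 0.62 in male C.

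Variation between libraries was smallest for the pro-survival genes Bcl2l2 and Bcl2 and largest for the low BH3-only and effector genes. The SD of log2 CPM was 0.11 for Bcl2l2 and 0.18 for Bcl2, lower than in all but 2.42% and 10.8% of tested genes. It was 0.24 for Bid, 0.27 for Mcl1, 0.30 for Bcl2l1, 0.34 for Bax and 0.37 for Bcl2l11. For Bbc3 it was 0.40, for Bak1 0.43 and for Hrk 0.56, the last at the 76.0th percentile. The median of the 10 genes was 0.32, beside 0.36 over all tested genes, and 6 of 10 lay below the latter. Poisson counting error, with each read taken as independent, would give a coefficient of variation of 19.9% for Bak1 and 19.5% for Bbc3, against 32.8% and 29.4% observed. For amplified reads the true counting error may be larger. For Hrk the 2 values were 13.1% and 38.3%, for Bax 2.43% and 25.8% and for Bcl2l1 1.68% and 21.4%. The highest CPM exceeded the lowest 1.23-fold for Bcl2l2, 2.06-fold for Bax and 2.57-fold for Hrk.

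For the 3 genes of largest spread, the most similar profiles among 10474 other genes with a mean of at least 5 CPM were sought by the root mean square difference of centred log2 CPM over the 6 libraries. Nearest to Hrk were Dhcr7 (difference 0.10) and Trpm2 (0.16). Dhcr7, a cholesterol synthesis enzyme, was at 54.3, 126 and 50.2 CPM in male A, C and D and at 116, 94.5 and 68.0 CPM in female A, B and C, with male C highest as for Hrk. Nearest to Bak1 were Mdm1 (0.10) and Gigyf1 (0.12), and nearest to Bbc3 were Lypla2 (0.10) and Samd1 (0.10). These profiles were picked as the nearest of that many over 6 libraries and carry no test.

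**Figure D3:**
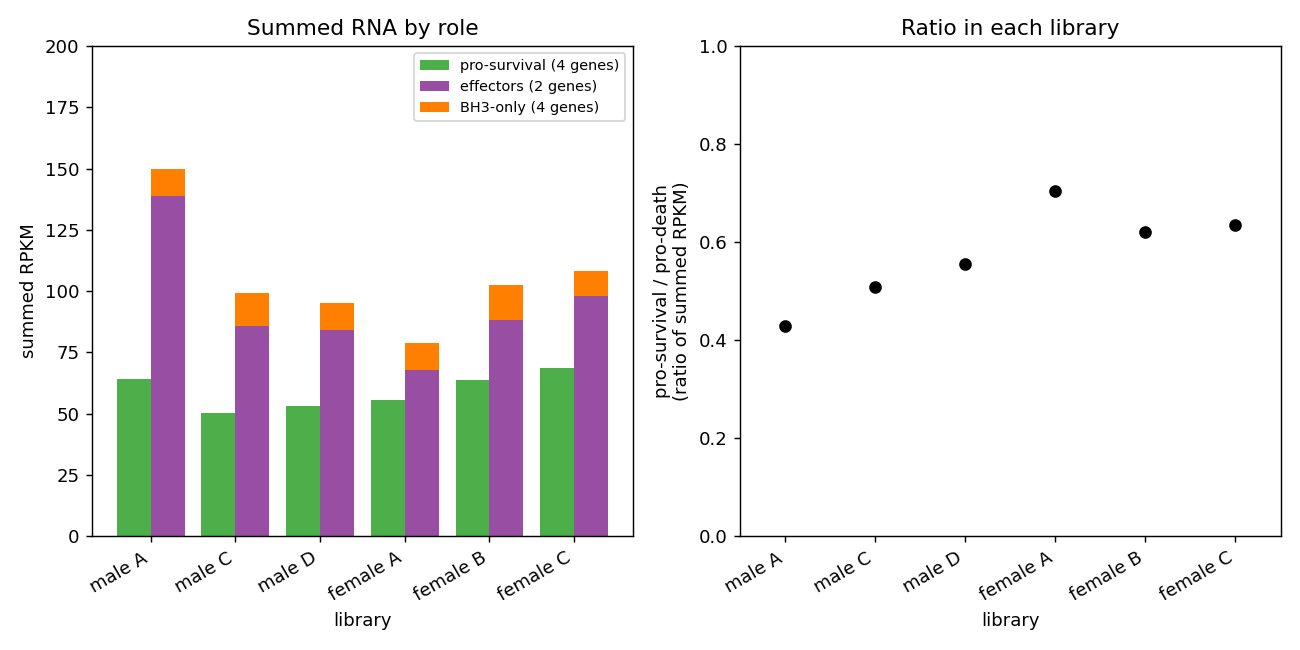
Left, summed RPKM of the 4 pro-survival genes beside the stacked sums of the 2 effectors and 4 BH3-only genes in each library. Right, the ratio of the pro-survival to the pro-death sum, which lies between 0.428 in male A and 0.705 in female A.

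To describe the balance of the 2 sides, RPKM were summed by role within each library. The pro-survival genes summed to 64.1, 50.3 and 53.0 RPKM in male A, C and D and to 55.5, 63.7 and 68.6 RPKM in female A, B and C (mean 59.2 ± 7.27). The effectors and BH3-only genes together summed to 150, 99.1 and 95.3 RPKM in the males and 78.7, 103 and 108 RPKM in the females (mean 106 ± 23.8). Bax supplied 85.3% to 92.3% of the pro-death sum, and Bid 80.4% to 86.4% of the BH3-only sum. On the other side Bcl2l1 supplied 53.4% to 70.0% and Mcl1 18.4% to 30.9%. The ratio of the 2 sums was 0.428, 0.508 and 0.556 in male A, C and D and 0.705, 0.620 and 0.635 in female A, B and C (mean 0.575 ± 0.0990, n = 6). Against the BH3-only genes alone the pro-survival sum was 3.73 to 6.93 times as large in the 6 libraries, and against the effectors alone 0.462 to 0.820 times. The BH3-only gene Bad is not a member, and its level (34.6 ± 7.04 RPKM) exceeds the sum of the 4 BH3-only members (mean 11.8 RPKM). With Bad added, a choice made after its level was seen, the pro-survival sum was 1.09 to 1.44 times the BH3-only sum, and the ratio to the whole pro-death sum averaged 0.432. These are sums of RNA, and neither protein amounts nor the bound and active forms were measured.

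Which side was larger depended on how counts were turned into levels. Under every divisor the counts were those over all exons, which only the summed exon length matches. Divided by the longest transcript the mean ratio was 0.989, with the 3 males below 1 (0.798 to 0.922) and the 3 females above 1 (1.04 to 1.16). Divided by the coding length of that same longest transcript it was 1.58, and with no division by length 2.18. That coding length was 517 bases for Bax and 534 for Bcl2l2. Their longest complete coding sequences, stop codon included, had 579 and 582 bases. Without Bax the ratio was 4.90, from 3.64 in male C to 6.41 in female C. The summed exon of Bax is short beside the 4462, 4586 and 9157 bases of Bcl2l2, Bcl2l1 and Bcl2, so division by length raises Bax most.

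**Figure D4:**
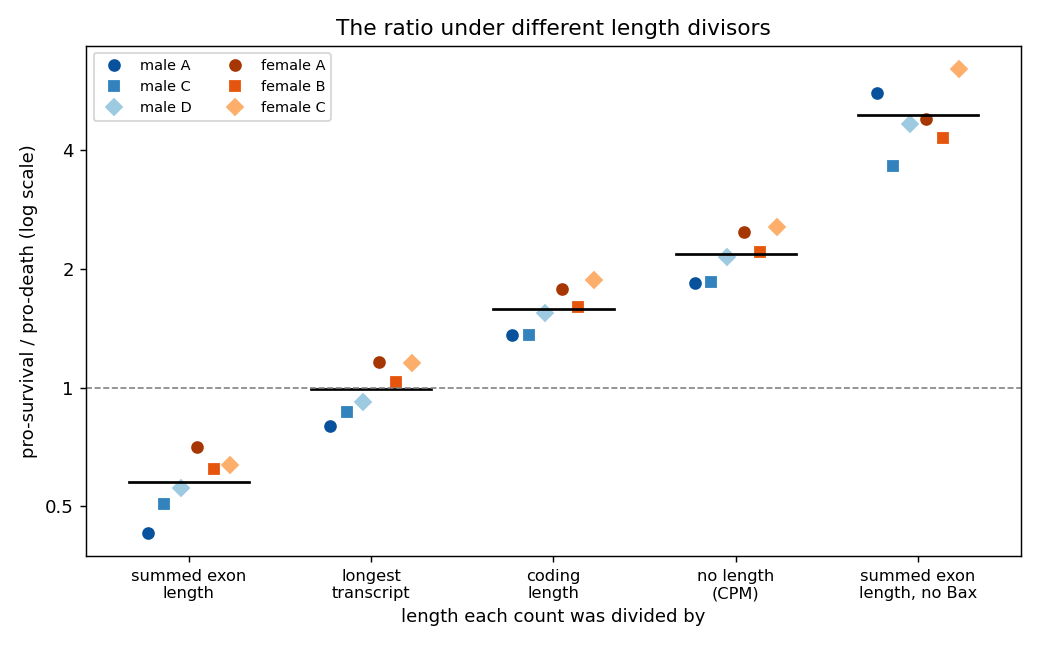
The pro-survival to pro-death ratio (log axis) in the 6 libraries for each length divisor, and without Bax, with bars for the mean and a dashed line at 1. The mean moves from 0.575 to 2.18 as the divisor changes, while the 3 female values stay above the 3 male values in the 4 columns that include Bax. All columns use the same counts and are not independent.

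The ratio differed between the sexes without overlap, at 0.653 ± 0.0454 in females and 0.497 ± 0.0644 in males (SD, n = 3 each). Female A, the one female of record set 1, had the highest value of all. The male set includes male A, with its non-neuronal markers, at the low end, and the library labelled male C. Without both, male D (0.556) still lay below the 3 females, with 1 male library left. Without Bax the sexes overlapped (3.64 to 5.59 in males, 4.30 to 6.41 in females). No p is given for this ratio, since the genes were chosen with results of these data known. With Bad added the ranges were 0.331 to 0.435 in males and 0.456 to 0.523 in females. How often ratios of other genes keep the sexes apart was not computed, so nothing is read from the lack of overlap. The ratio of Bax to Bcl2l1 was 2.17, 2.31 and 2.06 in female A, B and C and 3.08, 2.71 and 2.97 in male A, C and D. Among the 45 pairs of members, 5 (11.1%) had ratios without overlap between the sexes, this pair included.

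Gene by gene, no member passed the test between the sexes, whether among survival genes, effectors or BH3-only genes. The edgeR quasi-likelihood test over 14958 genes, with Benjamini-Hochberg adjusted p under 0.05 as the threshold, called 0 of the 10 members, against 0.0267% of all tested genes, and 0 had an unadjusted p under 0.05, against 4.42%. DESeq2 and limma voom also called 0 of the 10 members. Of the 4 genes that the edgeR test called, 0 were higher in females. It therefore did not call Xist, which the library labelled male C held at 58.9 CPM. The lack of a call does not show that the sexes had equal levels. Bak1 had the largest difference, with females at 1.5 ± 0.347 and males at 0.934 ± 0.190 CPM (log2 change, female minus male, 0.69, 95% interval -0.27 to 1.65, edgeR adjusted p = 0.961). It was the 1 member of 10 whose sexes did not overlap, against 8.06% of tested genes (4.18% with females higher and 3.88% with females lower). The log2 change of Bak1 ran from 0.48 to 0.86 when each library was left out, and was 0.79 without both male A and male C. Bax had 73.1 ± 13.4 CPM in the female and 89.0 ± 26.9 CPM in the male libraries (log2 change -0.28, interval -0.87 to 0.30, edgeR adjusted p = 0.966). Without male A its log2 change was -0.01, without both male A and male C it was -0.01 as well, and without female A it was -0.15. The difference was larger without male C (-0.40), male D (-0.41), female B (-0.31) or female C (-0.40). With record set as a term it was -0.61, and it was negative under all 18 alternatives. Mcl1 had 55.4 ± 6.32 CPM in the female and 45.6 ± 9.86 CPM in the male libraries (log2 change 0.28, interval -0.22 to 0.78). With male A and male C left out, the 2 libraries lowest in Mcl1, the log2 change was -0.05, and it was 0.18 without male C alone and 0.47 without male D. The interval of Bcl2 was among the narrowest, with 37.9 ± 4.95 (female) and 37.8 ± 5.70 CPM (male), which ran from -0.47 to 0.48 around a log2 change of 0.00. For the others the log2 changes were 0.15 for Bcl2l1, 0.05 for Bcl2l2, 0.34 for Bcl2l11, 0.14 for Bbc3, -0.06 for Bid and 0.31 for Hrk. Their intervals all include 0, and that of Hrk extends to 1.34. The value of Hrk rested on single libraries, at 0.07 without male A, 0.12 without male D, 0.18 without female A, 0.51 without female C, 0.89 without male C and 0.81 without both male A and male C. That of Bcl2l11 was 0.04 without female A, 0.22 without male A, 0.48 without male C and 0.53 without female C. Without both male A and male C, Bcl2l1 had 0.44. Bbc3 had -0.08 without male C alone and 0.37 without male A alone. Nothing in the labels says how far libraries of 1 sex share litters, so the p-values measure the spread between these 6 libraries.

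**Figure D5:**
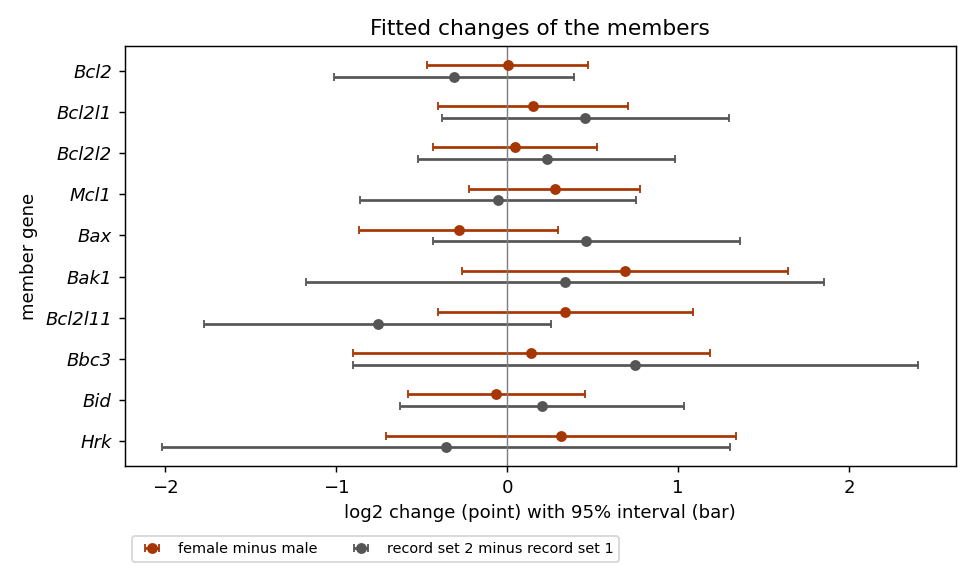
Fitted log2 change (point) and 95% interval (bar) of each gene, female minus male and record set 2 minus record set 1. All 20 intervals include 0, and those for record set, which set female B and female C against female A alone, are wider than those between the sexes.

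Female B and female C, the single-embryo libraries of record set 2, were fitted with sex as a term. Since all 3 males belong to record set 1, the record set term sets female B and female C against female A alone. Its intervals assume that this lone library varies as the others do, and the males lend only their spread. Record set cannot be told apart from the number of embryos and ganglia pooled. The edgeR test called 0 of 14958 genes (0% of all tested) and 0 of 10 members, with 483 genes and 0 members at an unadjusted p under 0.05. DESeq2 called 13 genes, none of them a member, and limma voom called 0. The largest member differences were those of 2 BH3-only genes. Bcl2l11 had a log2 change of -0.76 (interval -1.77 to 0.26, edgeR adjusted p = 1.00), with 5.75 and 4.60 CPM in female B and female C against 8.76 CPM in female A and 4.13 to 5.92 CPM in males. Bbc3 had 0.75 (interval -0.90 to 2.40). Bcl2l1 and Bax each had 0.46, with intervals from -0.38 to 1.30 and from -0.43 to 1.36. For Bax this reflects the low level of female A (58.4 CPM), since the means were 80.5 CPM in record set 2 and 81.4 CPM over all of record set 1. Over all 6 libraries, Bak1 was the 1 of 10 members that did not overlap between record sets, against 21.6% of tested genes (11.3% with record set 2 higher and 10.3% with it lower). Both comparisons use the same female libraries and are not independent.

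The rest of the death pathway was described by 7 lists of 82 genes, 72 of which passed the filter, and edgeR called 0 of the 72 in either comparison. In the female minus male fit, 7 of the 72 had an unadjusted p under 0.05, against 4.42% of all tested genes. Birc6, Foxo3, Igf1r and Gsk3b had positive log2 changes (0.70 to 0.98). Bmf, Dffb and Tradd had negative ones (-1.34 to -0.81), and each of the 7 had an edgeR adjusted p of 0.961. All the positive genes were highest in female B and female C. Their levels overlapped between the sexes but not between record sets, whereas those of Bmf, Dffb and Tradd overlapped in neither comparison. With record set as a term, where female A alone stands for the females, the changes were 0.35 to 0.51 and -0.88 to -0.40. Whether they go with sex or with record set was not tested. Without male A and male C none of the 7 had an unadjusted p under 0.05, nor did any of the 74 genes then tested, and the changes were 0.33 to 0.73 and -0.75 to -0.53. Among other BCL2 family genes, 7 of 14 were tested, 2 with a positive log2 change and a median of -0.13, beside 0.00 over all tested genes. Bnip3, a mitophagy receptor, had the highest level of the list at 79.5 ± 19.6 RPKM, and the BH3-only gene Bad the next at 34.6 ± 7.04 RPKM, above Bid and below Bcl2l1. Pmaip1, which encodes the BH3-only protein NOXA and is named outside the rule for named genes, had a mean of 0.173 CPM with 0 counts in male C. Of apoptosome and caspase genes all 10 were tested, 4 with a positive change (median -0.12). Dffa, which encodes the inhibitor of the caspase-activated nuclease, stood at 27.4 ± 4.60 RPKM. Of 7 genes for inhibitors of apoptosis and their antagonists, 2 had positive changes (median -0.12). Diablo, an antagonist released from mitochondria, was at 17.8 ± 0.887 RPKM and the inhibitor Birc2 at 14.8 ± 2.68 RPKM.

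Of 16 tested upstream stress and transcription genes, 8 had positive changes (median -0.03), led in level by the neuronal kinase Mapk10 at 20.8 ± 2.08 RPKM and its substrate Jun at 16.1 ± 4.53 RPKM. Survival receptors and kinases (8 of 15 positive, median 0.04) were led by the artemin co-receptor Gfra3 at 221 ± 42.1 RPKM and the kinase Gsk3b at 174 ± 80.2 RPKM. Death receptors and adaptors (7 of 10 tested positive, median 0.11) were led by Ngfr, the p75 neurotrophin receptor, at 44.2 ± 22.1 RPKM and Tnfrsf21, which encodes DR6, at 16.7 ± 2.75 RPKM. Mitochondrial outer membrane partners (4 of 7 positive, median 0.05) had Vdac1 at 265 ± 58.9 RPKM and Vdac3 at 148 ± 15.4 RPKM, channel proteins of that membrane. The same 7 lists had medians from -0.23 to 0.10 between record sets, beside 0.00 over all tested genes.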

How the data were processed

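The submitters' processing notes name Subread, featureCounts 1.4.5 and GRCm38.p2, and the Subread version and settings for strand and multi-mapping reads were not given in the sources used. Per the labels' protocols, 10 ng of RNA was amplified with a SMARTer low input kit. The authors deposited raw counts per Ensembl gene, with CPM (counts scaled to a common library total) and RPKM (CPM per kilobase of summed exon length). The deposited CPM and RPKM were recomputed from the deposited counts to within 1e-06 and not used further. Of 41388 identifiers, 40254 received a symbol.

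Levels used edgeR 4.0.16 (R 4.3.3) with TMM factors. Comparisons used its quasi-likelihood F-test after filterByExpr on sex (14958 genes), with Benjamini-Hochberg adjustment over all genes; 95% intervals rest on the log2 change over the square root of F as standard error. The biological coefficient of variation was 31.1%. Log2 CPM used a prior count of 2. Members, gene lists (pathway, marker) and tests were chosen with earlier results of these data known. Named genes were the members, the 2 highest-level genes of each pathway list and the nearest profiles of the 3 most variable members; other names in the pathway paragraphs were chosen after their values were seen, and 1 gene that the rule names is not reported here. The fits were also run on simulated data, whose outcome is not given here, so the power at 3 libraries per sex is not stated. Alternatives included RLE, upper quartile, library totals, other filters, DESeq2 1.42.0, limma 3.58.1 (voom), robust fits, left-out libraries, a replicate block and record set terms. BH3-coding bases and transcript lengths came from GENCODE M21, whose position overlapped the deposited one for all 10 members. Coding length, as a divisor, was that of the longest protein-coding transcript, which need not hold the longest complete coding sequence. Counts over all exons were divided under each of the length divisors. Protein sequences were not used here.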

Additional observations from a re-analysis of the deposited data

How the results depend on the processing

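No member was called under any of the 18 alternatives to the female minus male fit or the 16 to the record set fit. The count of all genes called, 4 between the sexes, was 14 with no low-count filter, 13 by DESeq2, 1 by limma voom, and 0 with record set as a term or in record set 1 only, and it ran from 0 to 5 when each library was left out, 0 being without female A. With the replicate letter as a replicate block, which leaves 1 residual degree of freedom, it was 77; same-letter libraries did not deviate together (correlations -0.08 and 0.05), and the letter is only a name. Between record sets the count was 0 and became 3 with no low-count filter, 13 by DESeq2, 139 without male A and male C, 3 with no sex term and 115 in female libraries only, where the fits giving 139 and 115 leave 1 residual degree of freedom. No record set fit was possible without female A or with the block.

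Signs of small sex differences turned. Bcl2 had a log2 change of -0.012 with RLE or DESeq2, -0.0067 with no filter, -0.021 with upper quartile, -0.10 on library totals and -0.24 without male A and male C, and -0.11 to 0.13 when each library was left out. Bcl2l2 had -0.075 on library totals, -0.074 with the replicate block, -0.11 with record set as a term or in record set 1 only, and -0.031 to 0.12 leaving out each library. Bcl2l1 and Bbc3 had -0.17 and -0.40 with record set as a term or in record set 1 only, and -0.012 to 0.37 and -0.14 to 0.37 leaving out each library. Bid had 0.035 and Mcl1 -0.050 without male A and male C, and Bid -0.27 to 0.058 leaving out each library. Between record sets, Bid ran from -0.13 to 0.48 and Mcl1 from -0.23 to 0.10 leaving out each library, and with no sex term Mcl1 had 0.18, Bax -0.016 and Hrk 0.029. The cause was not tested.

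The pro-survival to pro-death ratio of 0.575 became 2.18 without division by length, 1.58 per coding length and 0.989 per longest transcript. Leaving out Bax gave 4.90, Bcl2l1 0.223 and Mcl1 0.431, adding Bad gave 0.432, and leaving out each library 0.549 to 0.605. Library totals in place of TMM shifted the median log2 change of all genes to -0.12 between the sexes and -0.10 between record sets.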

Other observations

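The members did not share one profile over the libraries. The 2 libraries with the highest CPM were male A and female C for Bcl2l1, Bax and Bbc3, female A and male C for Bcl2l11 and Hrk, female B and male C for Bcl2l2 and Bid, male D and female A for Bcl2, female B and male D for Mcl1, and female B and female C for Bak1. This grouping was made after the values were seen. Of the 14958 tested genes, 11% had their highest 2 libraries in male A and female C, 7.45% in female A and male C, 3.61% in female B and male C, 12% in male D and female A, 6.46% in female B and male D, and 11.3% in female B and female C. Male A and female C were the highest 2 for 13 of 72 tested pathway genes, among them Bad and the p53 gene Trp53. Trp53 had 82.8 and 78.3 CPM in those libraries and 44.6 to 58.1 CPM in the remaining 4. The values of Bad were 87.8 and 81.2 CPM, against 52.9 to 74.3 CPM elsewhere.

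In none of the 13 series of 6 values checked, the CPM of the 10 members and 3 ratios of summed RPKM, was the gap between an extreme library and its neighbour above the 95% critical value of Dixon's test. Of the 14 other BCL2 family genes listed, 7 passed the filter. The lymphoid survival gene Bcl2a1a and its copy Bcl2a1d had 0 counts in the 6 libraries.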
